A study of Zea mays with 21 samples.

Results

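Phenylalanine ammonia-lyase removes ammonia from phenylalanine to give cinnamic acid, the entry step of the phenylpropanoid pathway. This pathway supplies lignin, which stiffens the walls of xylem and other cells of the root, and many soluble phenolics and flavonoids. In maize, as in other plants, the enzyme is encoded by a family of similar genes, and grass enzymes of this family can also use tyrosine. The protein coding genes (PCgenes) described here are the 5 that the paper names as encoding phenylalanine ammonia-lyase: Zm00001d017275, Zm00001d017276, Zm00001d017279, Zm00001d003015 and Zm00001d051166. They are 5 of 23175 listed PCgenes, and all 5 passed the filter on low values (a mean above 1 TPM over all libraries), which 22783 PCgenes passed. They were named from expression clusters and modules that the study built on these same libraries, some of them related to WS_4h. Neither their direction at WS_4h nor their varying together is therefore independent evidence. Whether they are all the members of the family in B73 was not examined, and "family total" below means the sum of these 5.

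The samples were primary root tips of seedlings of the maize inbred line B73 at the second leaf stage, taken before waterlogging (WS_0h) and after 2, 4, 6, 8, 10 and 12 h of standing water above the substrate (WS_2h to WS_12h). Each of the 7 time points had 3 libraries, each from 10 mixed root tips, 21 libraries in all. Water was applied to all pots in the morning, so that time of day and duration of stress cannot be told apart. The PCgene IDs are not paired with gene names in the reference table used here, so the root tip label could not be checked against marker genes. In these mixed tissues, fewer cells of a type and less RNA per cell cannot be told apart.

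Values are TPM, a relative transcript abundance corrected for gene length, with every library scaled to the same total, so levels of different genes can be set side by side. Library sums over the listed PCgenes ran from 534645 to 689689 TPM, median-ratio scale factors of the libraries lay between 0.965 and 1.06, and between 47 and 176 PCgenes per library were listed at 0. The deposited TPM carry no read depth, so no counting error is given. The precision rests on the spread among libraries of a time point, which the limma fit pools over the 7 time points. Differences were fitted with limma on log2(TPM + 1). A call needed a Benjamini-Hochberg adjusted p under 0.05 together with a log2 fold change past 1 in either direction. By the F test over all 7 time points the 5 genes differed (highest adjusted p 3.04e-06, limma), as did 82.9% of all PCgenes tested.

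Before waterlogging, the 5 genes lay at widely different levels. Zm00001d017275 was the most abundant, with 220.07, 248.65 and 242.87 TPM in the WS_0h libraries. Zm00001d017279 had 83.70, 106.01 and 95.30 TPM and Zm00001d017276 had 39.58, 47.56 and 63.57 TPM. These 3 genes did not overlap with each other. The remaining pair was lower and overlapped, with 15.86, 20.07 and 15.34 TPM for Zm00001d051166 and 17.51, 18.82 and 13.76 TPM for Zm00001d003015. The family total at WS_0h averaged 416 ± 34.6 TPM (SD, n = 3).

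After 2 h of waterlogging 0 of the 5 genes were called by limma, and 0 had an unadjusted p under 0.05. The family total averaged 426 ± 108 TPM at WS_2h, 102% of the WS_0h mean. The log2 fold changes against WS_0h lay between -0.07 (Zm00001d003015, 95% interval -0.54 to 0.41) and 0.26 (Zm00001d051166, 95% interval -0.45 to 0.97). At WS_2h replicate 2 was the highest and replicate 3 the lowest library in all 5 genes. The coefficient of variation was larger at WS_2h than at WS_0h in 4 of the 5 genes, and in Zm00001d003015 it was 15.7% at both. For Zm00001d017279 the WS_2h libraries had 107.65, 140.58 and 69.69 TPM. Among all PCgenes tested, 1.15% were called lower and 4.18% higher at WS_2h, and 4504 of 22783 had an unadjusted p under 0.05.

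At WS_4h all 5 phenylalanine ammonia-lyase genes fell, and the family total averaged 60.2 ± 20.5 TPM, 14.5% of its WS_0h mean. In the fit used here this was the broadest shift against WS_0h, with 23.7% of all PCgenes tested called lower and 19.3% higher. The paper, with a different test, reports more differentially expressed genes at WS_6h than at WS_4h. The median log2 fold change was -2.81 for the 5 genes and -0.05 for all PCgenes tested. In each of the 5 genes the libraries of WS_4h and WS_0h did not overlap, with WS_4h lower, as in 39% of all PCgenes tested.

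The most abundant member, Zm00001d017275, had 25.39, 53.18 and 48.11 TPM at WS_4h, 17.8% of its WS_0h mean. Its log2 fold change was -2.53 ± 0.21 (SE), the smallest fall of the 5 on this scale (limma with Benjamini-Hochberg, adjusted p 8.66e-09). Zm00001d017279 had 9.66, 17.28 and 12.02 TPM at WS_4h, 13.7% of its WS_0h mean, with a log2 fold change of -2.81 ± 0.32 (adjusted p 3.93e-07 by limma). Both genes thus remained well above 1 TPM in every WS_4h library.

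Zm00001d017276 fell furthest on this scale, although Zm00001d051166 kept a slightly smaller part of its WS_0h mean (4.86%, against 5.13% in Zm00001d017276). It had 1.19, 4.06 and 2.48 TPM at WS_4h, against 39.58, 47.56 and 63.57 TPM at WS_0h, and the log2 fold change was -3.90 ± 0.37 (limma with Benjamini-Hochberg, adjusted p 3.5e-08). Only 0.742% of the PCgenes tested had a lower log2 fold change at WS_4h, against 4.33% for Zm00001d017275.

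The 2 least abundant members came close to the lower end of the values. Zm00001d051166 had 0.33, 0.98 and 1.18 TPM at WS_4h, against 15.86, 20.07 and 15.34 TPM at WS_0h, so that 4.86% of its WS_0h mean was left. Zm00001d003015 had 0.97, 2.10 and 1.59 TPM at WS_4h, against 17.51, 18.82 and 13.76 TPM at WS_0h, or 9.30% of its WS_0h mean. Their log2 fold changes were -3.33 ± 0.34 and -2.81 ± 0.23 (adjusted p 9.95e-08 and 5.13e-09 in the limma fit). Adding 1 TPM understates the change of such low values, and with 0.1 TPM in its place the same falls were -4.34 and -3.39. With 0.1 TPM those of Zm00001d017276, Zm00001d017279 and Zm00001d017275 were -4.36, -2.90 and -2.56.

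**Figure D1:**
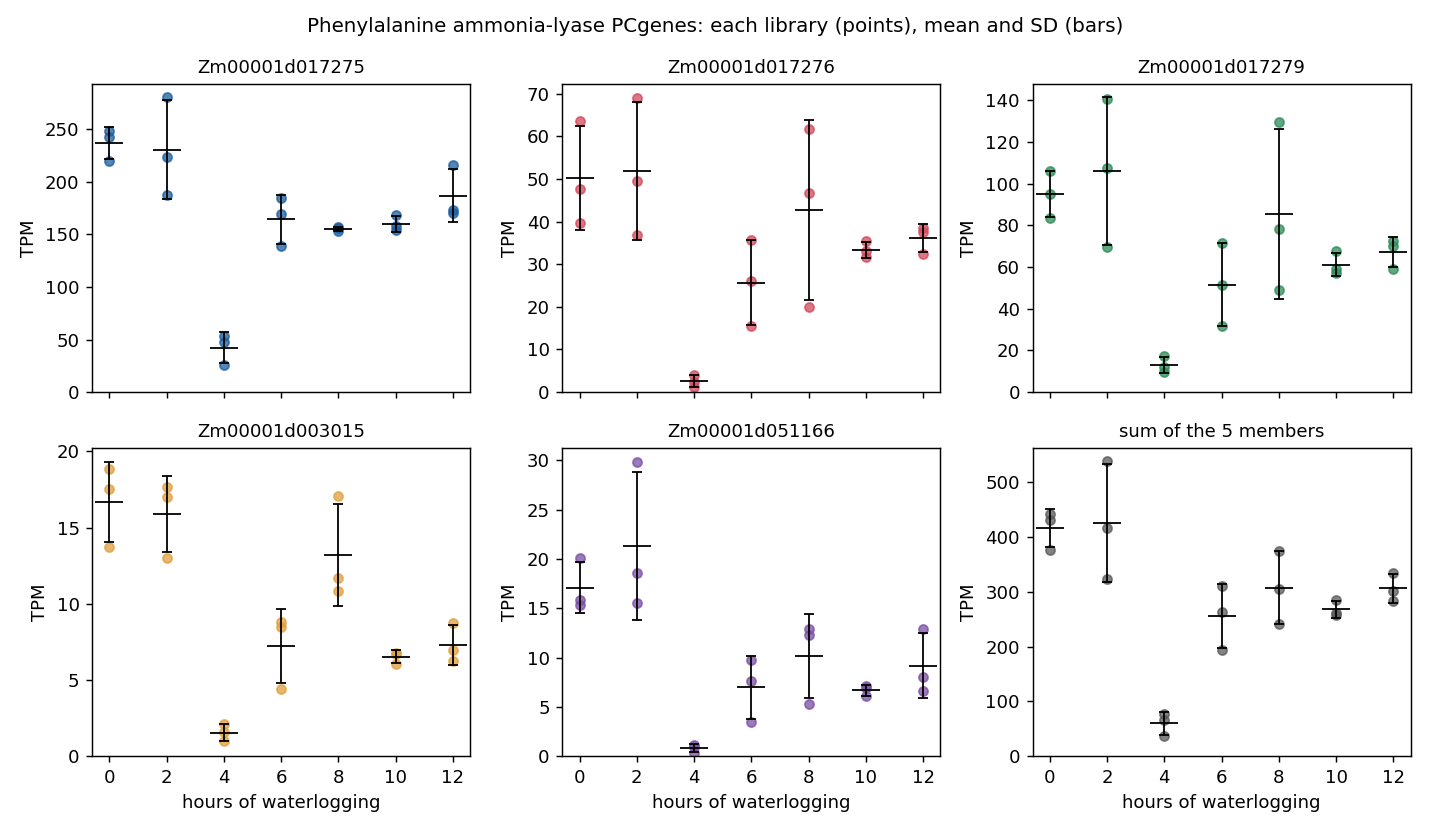
TPM of each phenylalanine ammonia-lyase gene and of their sum (vertical axes, each starting at 0) against hours of waterlogging (horizontal axes), with 1 point per library and the mean ± SD of the 3 libraries in black. All 6 panels are lowest at WS_4h, where the sum averages 60.2 TPM, and the later means lie between that level and the WS_0h mean.

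WS_4h replicate 1 was the lowest of the 3 libraries in all 5 genes, and it is also the library with the most PCgenes listed at 0 (176). The part of this library in the fall was measured by leaving it out: the 5 genes were still called, and the log2 fold change was the one nearest to 0 in each gene among the fits with 1 library left out, for example -3.58 in Zm00001d017276 and -2.21 in Zm00001d017275. Set against WS_2h in place of WS_0h, a comparison that leaves the WS_0h libraries out, the 5 genes were again called lower at WS_4h, with log2 fold changes between -3.92 (Zm00001d017276) and -2.47 (Zm00001d017275) and a background of 23.1% of PCgenes called lower.

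Between WS_4h and WS_6h all 5 genes rose. The family total averaged 256 ± 58.2 TPM at WS_6h, against 60.2 ± 20.5 TPM at WS_4h. In the direct comparison of these libraries, 18.4% of all PCgenes tested were called higher at WS_6h. The log2 fold change on log2(TPM + 1) was 2.91 ± 0.37 in Zm00001d017276 (limma, adjusted p 2.6e-06) and 1.66 ± 0.23 in Zm00001d003015 (adjusted p 5.68e-06). Those of Zm00001d051166, Zm00001d017275 and Zm00001d017279 were 2.06, 1.99 and 1.87. Zm00001d017276 was the highest of the 5 with 0.1 TPM added too (3.34), but the order of the others depended on the amount added: with 0.1 TPM the value was 2.15 in Zm00001d003015, above 2.02 in Zm00001d017275 and 1.95 in Zm00001d017279. In every one of the 5, all WS_6h libraries lay above all WS_4h libraries, which held for 37.8% of PCgenes tested. A fall called at WS_4h against WS_0h together with a rise called at WS_6h against WS_4h was found for 14.2% of all PCgenes tested, and both of these calls rest on the same WS_4h libraries.

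The rise by WS_6h left the 5 genes below WS_0h, with no overlap between the libraries, as in 28.3% of PCgenes tested. Zm00001d017275 had 184.92, 169.15 and 139.24 TPM at WS_6h, 69.3% of its WS_0h mean. The other members of the high group had wider libraries, with 35.59, 25.96 and 15.50 TPM for Zm00001d017276 and 71.49, 51.49 and 31.83 TPM for Zm00001d017279. Replicate 3 was the lowest WS_6h library in all 5 genes.

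Called at WS_6h against WS_0h were the 2 low members only, Zm00001d003015 and Zm00001d051166, with a background of 6.97% of PCgenes called lower. Zm00001d003015 had 8.48, 8.78 and 4.42 TPM at WS_6h, 43.3% of its WS_0h mean, with a log2 fold change of -1.14 ± 0.23 (limma with Benjamini-Hochberg, adjusted p 0.00056). Zm00001d051166 had 9.77, 7.68 and 3.48 TPM, with a log2 fold change of -1.26 ± 0.34 (adjusted p 0.00641 by limma). Both calls rested on replicate 3 of WS_6h: without it the values were -0.87 and -0.89 and neither gene was called. The log2 fold changes of Zm00001d017276 (-0.99) and Zm00001d017279 (-0.93) lay just under the fold threshold, and both passed it when WS_0h replicate 1 was left out (-1.14 and -1.02) or, likewise, replicate 1 of WS_6h (-1.25 and -1.20). Which of these 4 genes were called at WS_6h thus changed with single libraries.

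**Figure D2:**
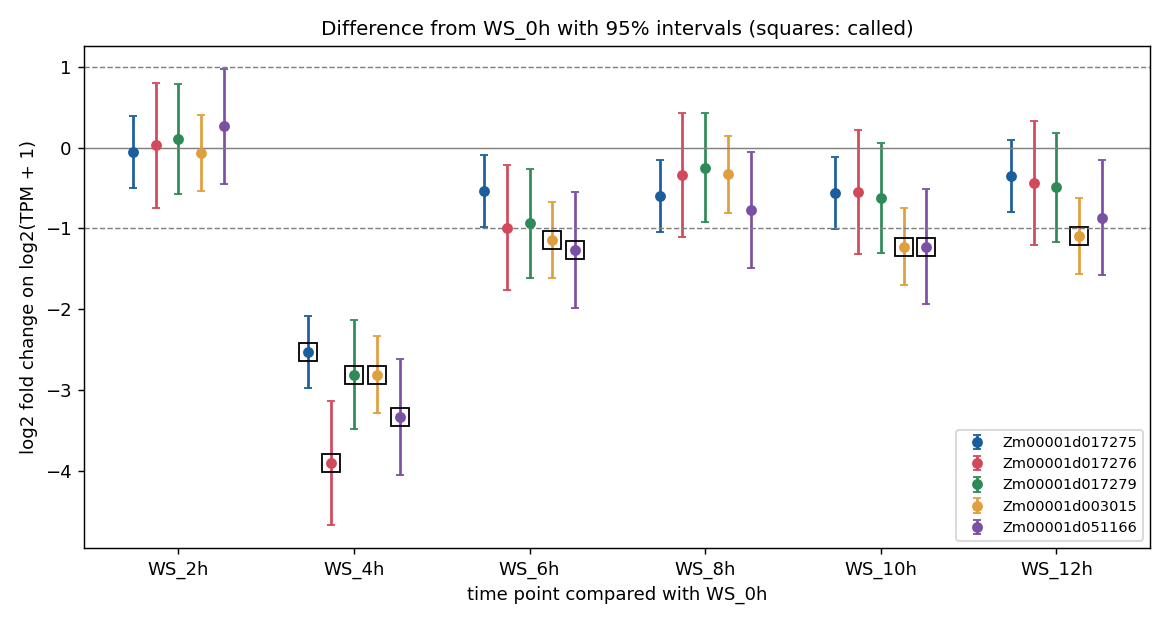
Log2 fold change on log2(TPM + 1) (vertical axis) of each phenylalanine ammonia-lyase gene at each time point against WS_0h (horizontal axis), with bars for the 95% interval, dashed lines at a fold threshold of 1 and squares around called values. All 5 genes are called at WS_4h, and after it only Zm00001d003015 and Zm00001d051166, at WS_6h, WS_10h or WS_12h.

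At WS_8h 0 of the 5 genes were called by limma, with 2 at an unadjusted p under 0.05 (Zm00001d017275 and Zm00001d051166). Of the 22783 PCgenes tested, 6694 had an unadjusted p under 0.05, and 3.79% were called lower than WS_0h. In Zm00001d017275 and Zm00001d051166 all 3 libraries lay below those of WS_0h, which held for 16.2% of PCgenes tested. The family total averaged 307 ± 66.4 TPM, 73.9% of the WS_0h mean. The members behaved differently among the WS_8h libraries. Zm00001d017275 was nearly the same in all 3, with 156.79, 156.60 and 153.39 TPM. Zm00001d017276 had 19.99, 46.64 and 61.73 TPM and Zm00001d017279 had 49.04, 78.26 and 129.64 TPM in the same libraries, so that replicate 3 lay within or above the WS_0h libraries of these genes and replicate 1 below them. Zm00001d003015 had 10.83, 11.71 and 17.06 TPM and Zm00001d051166 had 5.28, 12.30 and 12.92 TPM. The coefficient of variation at WS_8h was 1.23% for Zm00001d017275 and between 25.5% and 49.4% for the other 4. Intervals do not follow this spread, because the fit pools the spread of a gene over all time points. For Zm00001d017276 the 95% interval of the log2 fold change ran from -1.11 to 0.43.

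At WS_10h the coefficient of variation lay between 4.69% (Zm00001d017275) and 9.12% (Zm00001d017279), and at WS_12h between 9.07% (Zm00001d017276) and 36.1% (Zm00001d051166). The mean of each of the 5 genes was below that of WS_0h at both time points. Zm00001d017275, Zm00001d017276 and Zm00001d017279 averaged 67.6%, 66.5% and 64.4% of their WS_0h means at WS_10h and 78.7%, 71.9% and 70.8% at WS_12h. Zm00001d003015 and Zm00001d051166 averaged 39.1% and 39.2% at WS_10h and 43.7% and 53.8% at WS_12h. The 3 libraries of WS_10h lay below those of WS_0h in all 5 genes, which held for 27% of PCgenes tested, and so did those of WS_12h, against 28.9% of PCgenes tested.

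Zm00001d003015 had 6.80, 6.74 and 6.03 TPM at WS_10h and 6.22, 8.73 and 6.94 TPM at WS_12h, and was called lower than WS_0h at both. The log2 fold changes were -1.22 ± 0.23 and -1.09 ± 0.23 (adjusted p 0.000339 and 0.000933 in the limma fit). The WS_12h call was lost without WS_12h replicate 1 (-0.998). This gene was called lower than WS_0h at WS_4h, WS_6h, WS_10h and WS_12h, a pattern shared by 2.89% of PCgenes tested.

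Zm00001d051166 had 6.89, 7.14 and 6.09 TPM at WS_10h, with a log2 fold change of -1.22 ± 0.34 (limma with Benjamini-Hochberg, adjusted p 0.00916). At WS_12h it had 8.04, 12.94 and 6.61 TPM, and the value of -0.87 (95% interval -1.58 to -0.15) was not called, although it was called without WS_12h replicate 2 (-1.12). The background of PCgenes called lower was 5.94% at WS_10h and 5.78% at WS_12h.

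For the 3 more abundant genes WS_4h was the only time point called against WS_0h in the fit of all libraries, a pattern found for 15.6% of PCgenes tested. Zm00001d017275 had 168.56, 158.19 and 153.96 TPM at WS_10h and 215.72, 170.78 and 173.57 TPM at WS_12h, and its log2 fold change at WS_12h was -0.35 (95% interval -0.79 to 0.09). Zm00001d017276 had 35.45, 31.68 and 33.02 TPM at WS_10h and 32.40, 38.52 and 37.50 TPM at WS_12h. Zm00001d017279 had 67.55, 57.11 and 58.90 TPM at WS_10h and 72.74, 70.03 and 59.04 TPM at WS_12h. The intervals of these last 2 genes at WS_12h, -1.21 to 0.33 and -1.17 to 0.18, include both no difference and a fall past the fold threshold. Calls at the late time points in 2 genes and not in the other 3 do not show that the genes differ from each other, which was not tested.

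The later steps were small. In 0 of the 5 genes was a step called by limma at WS_8h against WS_6h, WS_10h against WS_8h or WS_12h against WS_10h, with 2, 1 and 0 of the 5 at an unadjusted p under 0.05. Called lower among all PCgenes were 5.36%, 0.751% and 0% at these steps, and called higher 2.19%, 2.8% and 0%. Of the 22783 PCgenes tested, 7475, 4315 and 525 had an unadjusted p under 0.05 at these steps. The widest of these steps were in Zm00001d003015, with a log2 fold change of 0.81 at WS_8h against WS_6h and -0.89 at WS_10h against WS_8h. Both had an adjusted p under the threshold (limma, 0.017 and 0.0207) but stayed below the fold threshold. All 3 WS_8h libraries of this gene lay above all 3 WS_6h and all 3 WS_10h libraries. How many of all PCgenes tested did so was not counted, so this is no trait particular to the gene.

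**Figure D3:**
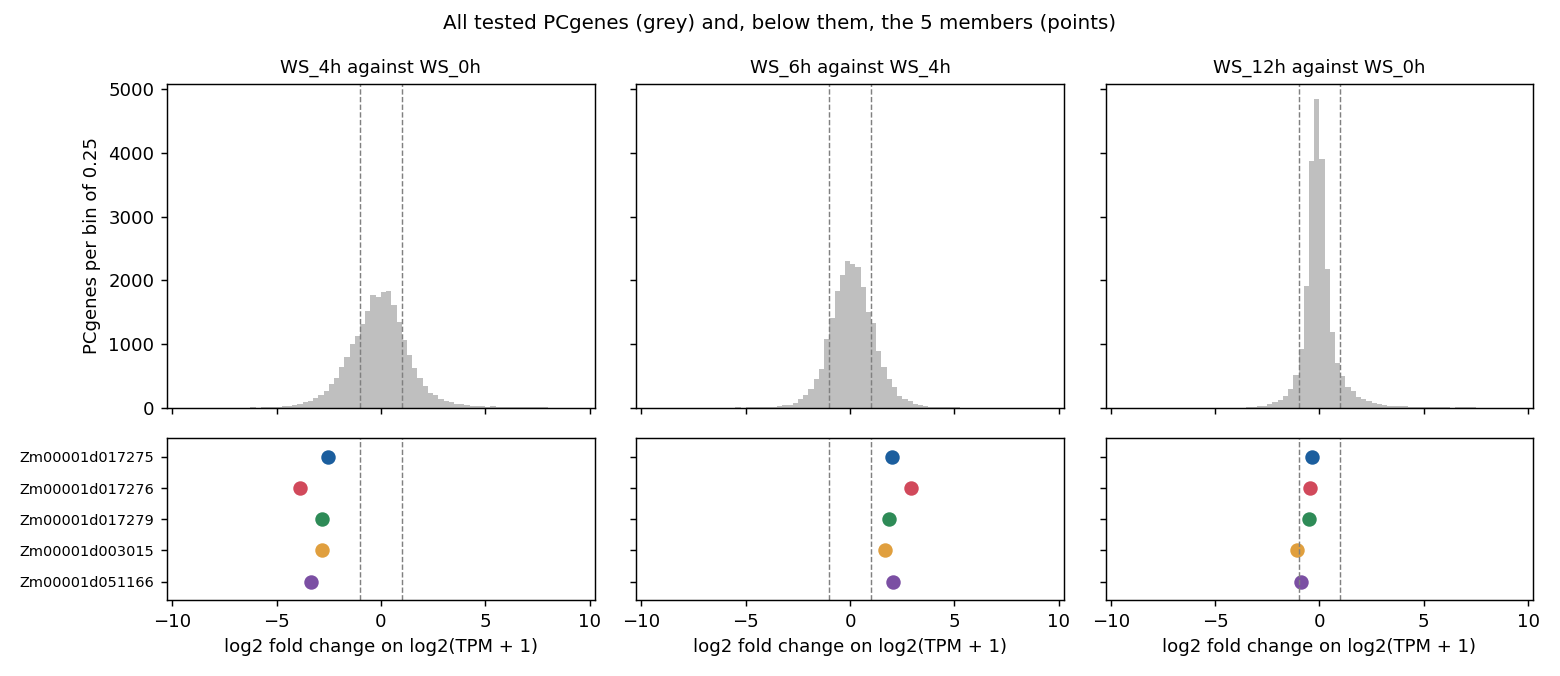
Number of tested PCgenes per bin of log2 fold change (grey, upper panels) and the 5 phenylalanine ammonia-lyase genes (points, lower panels) in 3 comparisons, on a shared horizontal axis with dashed lines at the fold threshold of 1. The 5 genes lie between -3.90 and -2.53 at WS_4h against WS_0h, between 1.66 and 2.91 at WS_6h against WS_4h, and between -1.09 and -0.35 at WS_12h against WS_0h.

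The make-up of the family total changed with the fall. Shares of a library add up to a fixed total, so a gain in 1 gene needs a loss among the others. They express the unequal falls given above in another way and are not separate evidence. Zm00001d017275 held 67.6%, 68.5% and 73.6% of the summed TPM in the WS_4h libraries, against 58.4%, 56.4% and 56.4% in the WS_0h libraries. Zm00001d017276 held 3.17%, 5.23% and 3.79% at WS_4h, against 10.5%, 10.8% and 14.8% at WS_0h. The groups did not overlap for either gene. The share of Zm00001d017279 averaged 22.1% ± 3.68 at WS_4h and 22.8% ± 1.08 at WS_0h (SD, n = 3 each), and its libraries overlapped.

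The 2 least abundant genes also held less of the total at WS_4h. Zm00001d051166 averaged 1.32% ± 0.465 at WS_4h and 4.11% ± 0.503 at WS_0h, and Zm00001d003015 averaged 2.57% ± 0.137 at WS_4h and 4.04% ± 0.754 at WS_0h. Neither overlapped between the time points. With 3 libraries against 3 an exact two-sided permutation test cannot give a p below 0.1, so shares are given without a test.

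After WS_4h the shares varied between time points. From WS_6h to WS_12h the mean shares of Zm00001d017275 were, in order of time, 65.2% ± 6.04, 52.3% ± 12.0, 59.8% ± 0.783 and 60.8% ± 3.83, and those of Zm00001d017276 were 9.77% ± 1.75, 13.3% ± 4.43, 12.5% ± 0.328 and 11.9% ± 1.94 (SD, n = 3 each). For Zm00001d003015 the shares were 2.78% ± 0.534, 4.29% ± 0.395, 2.43% ± 0.131 and 2.40% ± 0.524, overlapping with WS_0h at WS_6h and WS_8h and lying below it at WS_10h and WS_12h. For Zm00001d051166 they were 2.62% ± 0.728, 3.22% ± 0.943, 2.50% ± 0.203 and 3.01% ± 1.12, overlapping with WS_0h at WS_8h and WS_12h and lying below it at WS_6h and WS_10h. At WS_8h the share of Zm00001d017275 ran over 64.8%, 51.3% and 40.9% in replicates 1, 2 and 3, and that of Zm00001d017279 over 20.3%, 25.6% and 34.6%.

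**Figure D4:**
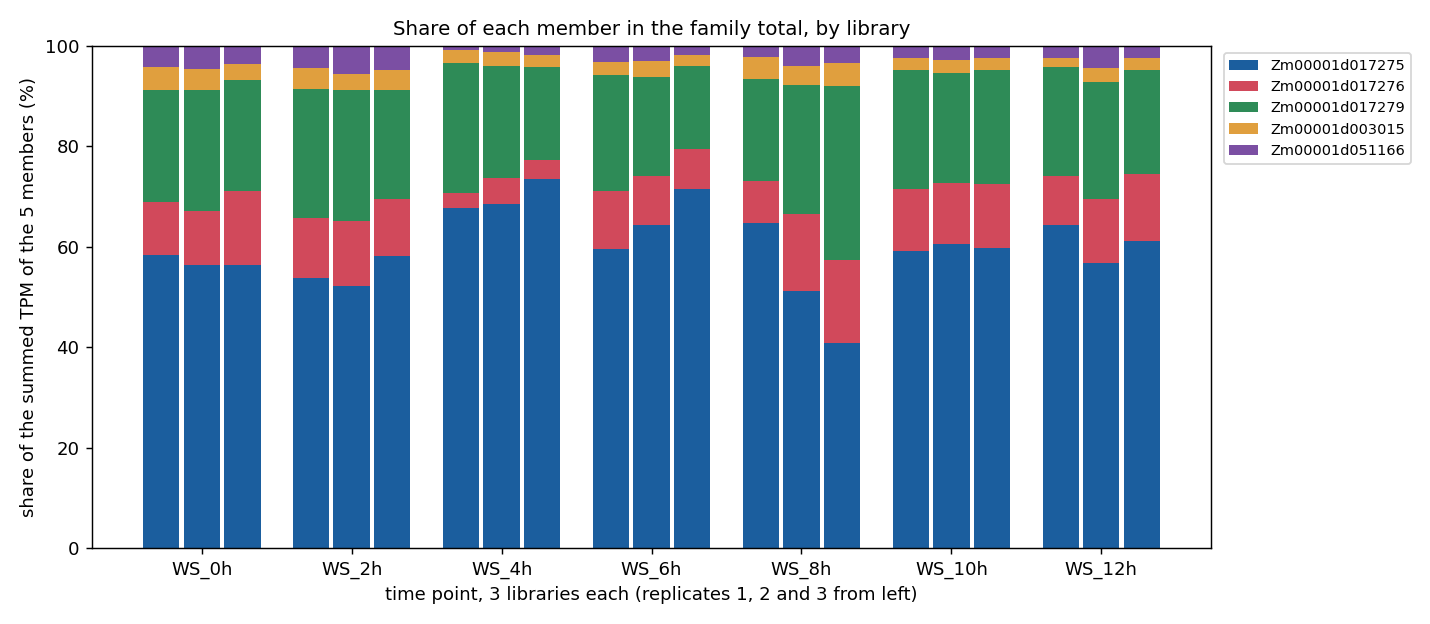
Share of each phenylalanine ammonia-lyase gene in the summed TPM of the 5 (vertical axis, 0 to 100%), as 1 stacked bar per library, grouped by time point. The lowest block, Zm00001d017275, reaches 67.6% to 73.6% in the 3 WS_4h libraries and differs most between the 3 WS_8h libraries, from 40.9% to 64.8%.

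Across the 21 libraries the 5 genes varied together. Because they were named from clusters and modules of genes with like expression in these libraries, high correlations were favoured by that choice. Correlations between other pairs of PCgenes were not computed for comparison. Pearson correlations of log2(TPM + 1) lay between 0.89 (Zm00001d017275 with Zm00001d003015) and 0.98 (Zm00001d017276 with Zm00001d017279). Without the WS_4h libraries, over the other 18, they lay between 0.63 (Zm00001d017275 with Zm00001d017276) and 0.94 (Zm00001d017276 with Zm00001d017279). For deviations from the time point means, which leave the time course out, the range was 0.54 to 0.91, with the highest value again for Zm00001d017276 and Zm00001d017279. All 4 correlations of deviations that involve Zm00001d017275 were among the 4 lowest of the 10. Genes of 1 library share its RNA and its scaling, and reads from similar gene copies can be assigned to the wrong one. According to the paper, uniquely mapped reads were used. How alike the sequences of the 5 genes are was not examined here.

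Downstream of the lyase, peroxidases take part in joining lignin units in the cell wall. The paper names 12 peroxidase genes in sets that it reports as lowered, in phenylpropanoid biosynthesis or in a module related to WS_4h. Of these, 11 were listed. They too were chosen on these libraries, so their direction at WS_4h is not independent evidence. Other peroxidase genes, which the paper reports as raised in a module related to WS_12h, were not included. At WS_4h 6 of the 11 were called lower and 0 higher than WS_0h, beside 23.7% and 19.3% of all PCgenes tested, with a median log2 fold change of -1.40 beside -0.05 for all PCgenes tested. The lowest was Zm00001d008300, which averaged 1.68 TPM at WS_4h and 104 TPM at WS_0h (log2 fold change -5.30). The 6 included Zm00001d007161, which averaged 7.24 TPM at WS_4h and 57.6 TPM at WS_0h. Not all of the 11 had a lower mean at WS_4h. Zm00001d037550 averaged 16.3 TPM at WS_4h and 10.4 TPM at WS_0h (log2 fold change 0.51, not called). Zm00001d046035 averaged 0.38 TPM at WS_4h and 0 TPM at WS_0h, so it could not be called lower. At WS_6h 4 of the 11 were called higher than at WS_4h, beside 18.4% of all PCgenes tested. At WS_12h 1 of the 11 was called lower than WS_0h, as was 1 of the 5 phenylalanine ammonia-lyase genes, beside 5.78% of all PCgenes tested. The median log2 fold change at WS_12h was 0.21 for the 11 peroxidases, -0.49 for the 5 genes and -0.08 for all PCgenes tested.

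The PCgenes whose pattern was most like that of the family total were chosen by the Pearson correlation of log2(TPM + 1) over the 21 libraries, among 22778 PCgenes without the 5 members. Zm00001d015459 came first at 0.993, and it averaged 75.5, 79.7, 9.96, 47.0, 54.5, 54.4 and 61.5 TPM from WS_0h to WS_12h. It kept a correlation of 0.958 over the 18 libraries without WS_4h. Next were Zm00001d035925 (0.988), Zm00001d040697 (0.987), Zm00001d049541 (0.984) and Zm00001d040466 (0.984), with values between 0.866 and 0.921 without WS_4h. The libraries of a time point share a treatment and these correlations are descriptions. The sources used here pair none of these 5 IDs with a name.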

How the data were processed

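Total RNA of root tips was sequenced from stranded libraries. The authors, according to the labels and methods, checked reads with FastQC, trimmed them, aligned them to B73 RefGen_v4 with HISAT2 2.0.5, counted them with featureCounts and deposited TPM, listing genes by average TPM. The strand setting of the counting is not given in the sources used here. The TPM were used as deposited. The lncRNA values were not used.

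After adding 1 TPM, log2 values of the PCgenes averaging over 1 TPM entered a single fit of all 21 libraries (R 4.3.3, limma 3.58.1) that estimated the 7 time point means with trended variances and without a replicate block. All p-values were adjusted (Benjamini-Hochberg) over all PCgenes tested within each comparison. Intervals are 95% intervals of the same fit. The fit was also run on simulated data with independent noise and few changed PCgenes. That setting differs from these data, so it gives no error rate for them. Drawings used Python 3.11.15 and matplotlib 3.10.9.

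Named genes are the 5 members, the listed peroxidases from the sets that the paper reports as lowered, and the 5 PCgenes most correlated with the family total. The other pathway and marker lists planned from annotation could not be made, because the RefSeq table of assembly NAM 5.0 holds none of these IDs. The members and lists were chosen with earlier results of these data known. Alternatives were a pseudocount of 0.1 TPM, the 2 time points alone, no trend, a replicate block, median-ratio rescaling, no filter or a filter at 5 TPM, and leaving out each library compared.

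Same-numbered libraries share a number in the labels. Their deviations from the time point means correlated with those of WS_0h by 0.22 to 0.62 at WS_2h and 0.30 to 0.40 at WS_10h. At the other time points the correlations ran from -0.23 to 0.25. Differently numbered libraries were not compared, so these values do not establish pairing, and the main fit used no replicate block. The labels do not say what a number marks. The paper describes the libraries of a time point as replications from separate plots.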

Additional observations from a re-analysis of the deposited data

How the results depend on the processing

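For the 5 genes, 40 log2 fold changes were each recomputed under 13 alternatives. They covered 6 time points against WS_0h, WS_4h against WS_2h and WS_6h against WS_4h. Of the 520 recomputed values, 504 kept direction and call. Under the 7 settings that keep all libraries compared, 0 changed. Of these settings only the pseudocount and the rescaling can alter a log2 fold change. The others, the replicate block among them, leave it the same by design and could change only the call. Leaving out 1 library moved the count of the 5 called lower from 2 to between 0 and 4 at WS_6h (0 without WS_6h replicate 3, 4 without WS_0h replicate 1 or WS_6h replicate 1) and from 1 to between 0 and 2 at WS_12h. Directions that turned were of uncalled values: at WS_2h between -0.20 and 0.24 (Zm00001d017276), -0.12 and 0.38 (Zm00001d017279), -0.21 and 0.0825 (Zm00001d017275) and -0.19 and 0.0601 (Zm00001d003015), and at WS_8h between -0.67 and 0.12 (Zm00001d017276) and -0.60 and 0.0905 (Zm00001d017279). All 5 genes fell at WS_4h and rose at WS_6h against WS_4h in every alternative run. A filter at 5 TPM lowered the background counts of PCgenes called lower, for example to 967 (from 1587) at WS_6h and 735 (from 1316) at WS_12h. Of the 5 PCgenes most like the family total, 2 were also among the 5 by Spearman correlation. The TPM carry no read depth, so no counting error can be given for the values near 1 TPM at WS_4h.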

Other observations

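IDs of this annotation are numbered along the chromosomes, and 13 other listed PCgenes have an ID number within 5 of one of the 5 genes. The sources used here give none of them a name, so whether any of them also encodes phenylalanine ammonia-lyase could not be checked. They were looked at after the values had been seen. At WS_4h 9 of the 13 were called lower than WS_0h and 0 higher, beside 23.7% and 19.3% of all PCgenes tested. At WS_6h 8 were called higher than at WS_4h, beside 18.4% of all PCgenes tested. The one next to Zm00001d017275, Zm00001d017274, was more abundant than any of the 5 genes, with 135.38, 314.05 and 266.82 TPM at WS_4h, against 534.21, 740.73 and 588.01 TPM at WS_0h (log2 fold change -1.45, limma with Benjamini-Hochberg adjusted p 4.24e-05, lower in 3 of 3 libraries). Such a fall without overlap held for 39% of PCgenes tested. At WS_12h Zm00001d017274 had 1106.30, 1041.03 and 947.81 TPM, and all 3 libraries lay above those of WS_0h. How many of all PCgenes tested did so was not counted, and the log2 fold change of 0.74 was below the fold threshold. The family total above does not include Zm00001d017274, which averaged 621 TPM at WS_0h against 416 TPM for that total. The 5 phenylalanine ammonia-lyase genes had negative log2 fold changes at WS_12h, and the difference between Zm00001d017274 and these genes was not tested.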
